A study of Mus musculus with 6 samples.

Results

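The subject here is the set of genes that encode the subunits of the 26S proteasome in myeloid cells from mouse tumours. Members were the rows named Psma, Psmb, Psmc or Psmd with a number, leaving out the immunoproteasome genes Psmb8, Psmb9 and Psmb10, with a summed count of at least 60 over the 6 libraries. The rule gave 34 of the 17191 genes in the deposited table. They comprise 7 genes of the alpha ring, 7 of the beta ring, 6 ATPases, 3 other subunits of the base, 8 subunits of the lid and 3 chaperones that assemble the base. Psma8, an alpha subunit of germ cells, was under the minimum with a summed count of 52. The member nearest above the minimum was Psmd10, with a summed count of 3525. The authors' annotation places 32 of the 34 in the KEGG proteasome pathway, and the other 2 are the base chaperones Psmd5 and Psmd10.

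The treated group was 3 libraries from mice dosed orally with TP-18, for which the labels give a code name and no structure, at 50 mg/kg each day over 3 weeks. The control group was 3 libraries from mice that received vehicle over that time. All mice were female BALB/c animals of 6 to 8 weeks. They bore CT26 tumours, grown under the skin from a colorectal carcinoma line of the mouse, which had reached 100 to 200 mm3 before mice were assigned. The series text describes CD11b+F4/80+CD206+ tumour-associated macrophages purified by flow sorting, the sample protocol describes bead selection of CD11b+ cells, and the sample characteristics give the CT26 line. The labels do not say whether a library was 1 mouse or a pool, so how far the spread between libraries reflects differences between mice is not known.

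The proteasome degrades proteins that carry chains of ubiquitin. Its 20S core is a barrel of stacked alpha and beta rings, with the proteolytic sites inside on the beta subunits PSMB5, PSMB6 and PSMB7. The 19S particle caps the barrel: its lid removes ubiquitin, and the ATPase ring of its base unfolds the protein and feeds it into the core. In mammals the genes of these subunits are induced together by the transcription factor NRF1, encoded by Nfe2l1, when proteasome activity is short, and macrophages exposed to interferon gamma replace the catalytic subunits with PSMB8, PSMB9 and PSMB10.

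NRF1 acts on its targets through antioxidant response elements, so the start sites of the members were searched for the core of that element. RefSeq promoter windows on GRCm38.p6, from 250 bases before to 50 bases after each start, matched 28 of the 34 members with 30 windows. The letters TGACNNNGC, on either strand, occurred in 5 of these windows, 16.7%, against 12.4% of all 32851 promoter windows. These sites are shown because they are the members' only matches. Capitals mark the 9 letters of the match within up to 10 flanking bases, on the strand of the gene, and in Psmc6 and Psmd12 the match lies on the opposite strand, so that its reverse complement is shown.
Psmb5, chr14:54618024-54618052, minus strand: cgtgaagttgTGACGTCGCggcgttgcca
Psmb6, chr11:70525338-70525366, plus strand: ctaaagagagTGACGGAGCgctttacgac
Psmc6, chr14:45329587-45329615, plus strand: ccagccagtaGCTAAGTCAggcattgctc
Psmd12, chr11:107479278-107479299, plus strand: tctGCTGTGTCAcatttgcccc
Psmd9, chr5:123228149-123228177, plus strand: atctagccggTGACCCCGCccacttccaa

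The matches in the catalytic genes Psmb5 and Psmb6 begin 47 and 9 bases before the start, that of the chaperone gene Psmd9 begins 31 bases before it, and those of Psmc6 and Psmd12 lie 227 and 247 bases before it. The CCAAT box, searched as CCAAT on either strand, occurred in 36.7% of the members' windows and in 37.4% of all windows. The GC box, searched as GGGCGG on either strand, occurred in 60% of the members' windows and in 35.7% of all windows. The members' windows had a median GC content of 55.8%, against 52.7% over all windows. A match is a string of letters and does not show that a factor binds there.

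Total counts ran from 17135001 to 17597645 in the TP-18 libraries and from 16371128 to 17004480 in the vehicle libraries, and the smallest count of any member in any library was 511. The 6 macrophage markers examined summed to 4079 to 6229 CPM (each count relative to a library size scaled by the TMM method) in TP-18 libraries and 4311 to 8780 CPM in vehicle libraries. The 6 epithelial markers summed to 5.75 to 7.76 CPM in TP-18 libraries and 4.92 to 10.00 CPM in vehicle libraries. Markers of cycling cells, 4 genes, summed to 652 to 1237 CPM in TP-18 libraries and 548 to 828 CPM in vehicle libraries. Which cells carried the cycling markers was not tested. Fibroblast markers were the 1 list of 8 whose sums did not overlap, at 1469.5 to 1826 CPM in TP-18 libraries and 738 to 1194 CPM in vehicle libraries over 6 genes, none of them listed at 0. Col1a2 made up most of that sum in every library, and none of the 6 genes passed the edgeR test. Taken singly, Dcn and Pdgfra overlapped between groups. The part of fibroblasts in the proteasome values was not tested. In RNA from many cells, fewer cells of a type and less RNA per cell cannot be told apart.

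All 34 members were well expressed. Per length, on the deposited FPKM scale, the mean level over the 6 libraries ran from 13.7 FPKM for Psmd9 to 225 FPKM for Psmb4, with a median of 77.8 FPKM against 7.70 FPKM over all tested genes. The 14 subunits of the core lay between 47.4 FPKM for Psmb5, which carries the chymotrypsin-like site, and 225 FPKM for Psmb4, a beta subunit without a proteolytic site. The core holds these subunits in equal number, yet in each of the 6 libraries Psmb4 was the highest and Psmb5 the lowest of the core genes, with a ratio of 4.38 to 5.75. The ATPases spanned a narrower range, 55.7 to 104 FPKM. The lid ran from 28.6 FPKM for Psmd11 to 124 FPKM for Psmd8. The base chaperones, which leave the finished particle, lay at 13.7 FPKM for Psmd9, 23.6 FPKM for Psmd10 and 32.2 FPKM for Psmd5, the last of these above the lid gene Psmd11. The order of the members was nearly the same in both groups, with a Spearman correlation of 0.98 between the mean FPKM of TP-18 and vehicle libraries across the 34 genes, which share the same libraries and gene lengths.

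**Figure D1:**
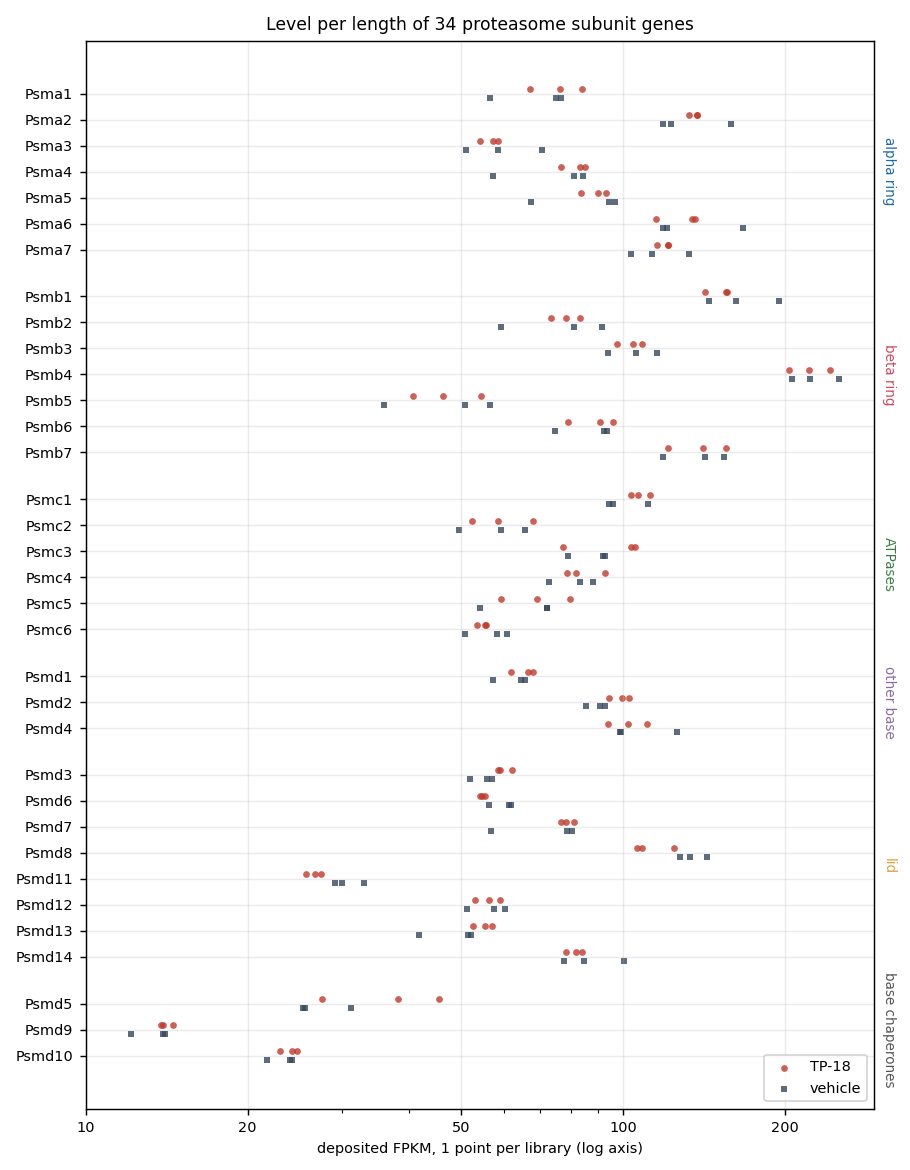
Deposited FPKM of the 34 members in each library on a log axis, with TP-18 libraries (circles) above vehicle libraries (squares) for each gene, grouped by role. Psmb4 is the highest and Psmd9 the lowest member in every library, and the groups overlap for most genes.

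The comparison of TP-18 with vehicle asked whether treatment altered these transcripts. No member passed the edgeR test: 0 were lower and 0 higher at an adjusted p under 0.05 over all 12721 tested genes, where 0.0865% of all tested genes were called lower and 0.0236% higher. The smallest adjusted p of a member was 0.219. Log2 fold changes ran from -0.43 to 0.26 with a median of -0.14, against a median of 0.023 over all tested genes, and 32 of the 34 were below 0, or 94.1%, against 47.4% of all tested genes. The 95% interval of the fold change lay within a 2-fold change either way for all 34 members and within a 1.5-fold change for 25 of them. DESeq2 also called 0 members, with a smallest adjusted p of 0.0969, while it called 2.51% of its tested genes lower and 1.18% higher.

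The side of 0 on which the members lay depended on how libraries were scaled. TMM factors were 1.05 to 1.07 in TP-18 libraries and 0.924 to 0.962 in vehicle libraries. With library totals in place of TMM, the median of the members was 0.032 and that of all tested genes 0.20, and 13 of 34 members were below 0. The distance of the members' median from that of all tested genes was -0.17 under both scalings. Changing the scaling shifts the fold changes of all genes by nearly the same amount. The equal distance follows from that shift and is no check on the result. The distance was 0.094 once a smooth trend of the fold change on gene length and mean expression was removed. The summed level of the members was 3871 ± 140.3 CPM in TP-18 libraries and 4325 ± 431 CPM in vehicle libraries with TMM (SD, n = 3 each). As CPM of the unscaled library total it was 4117 ± 138 in TP-18 libraries and 4068 ± 424 in vehicle libraries. The order of the groups thus turned round with the scaling, and the difference was about as large as the vehicle SD with TMM and smaller than it without.

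**Figure D2:**
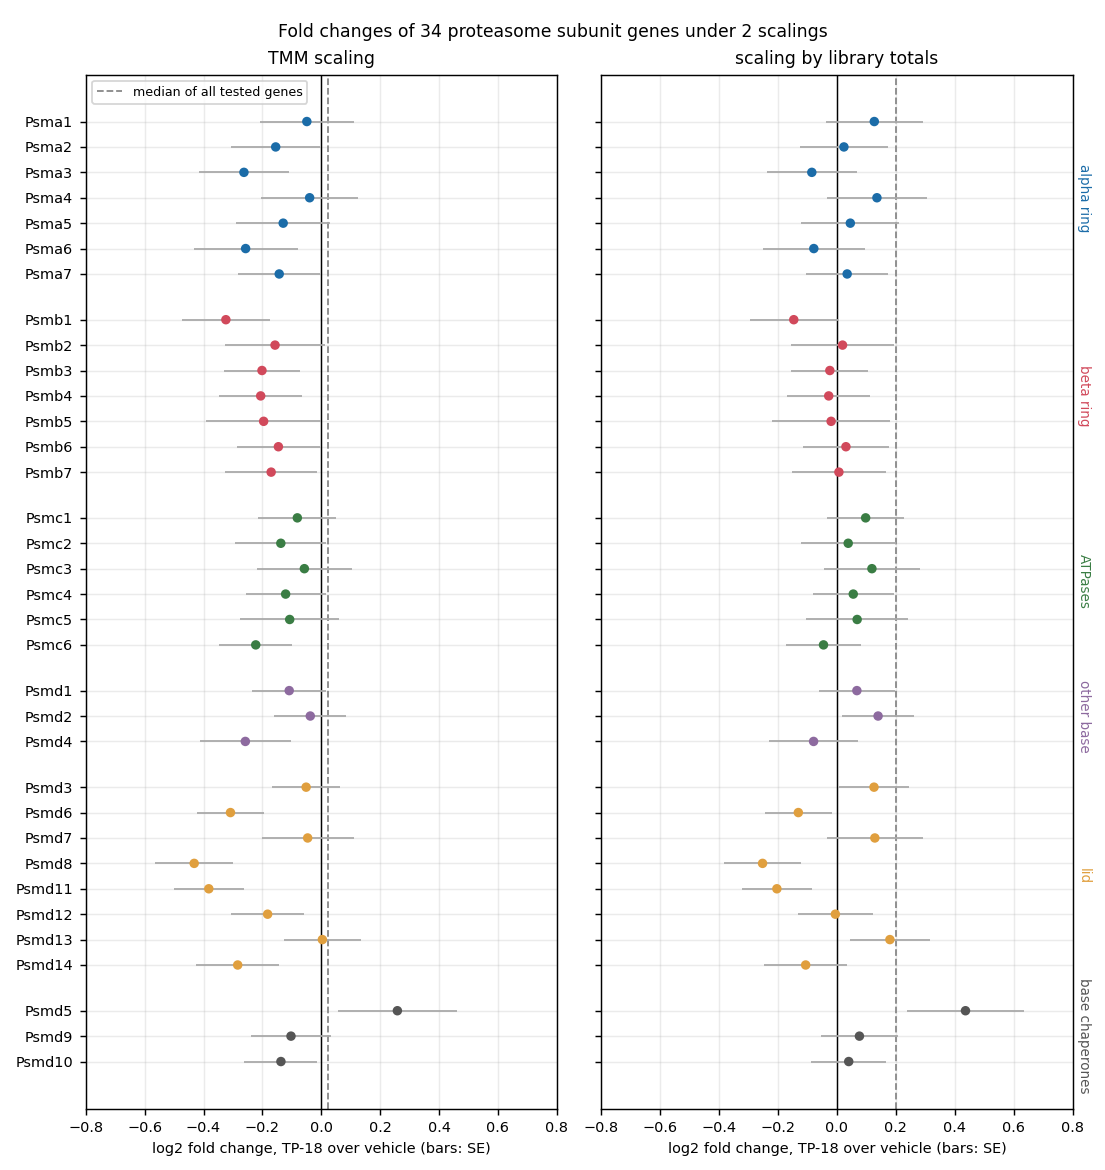
Log2 fold change of each member, TP-18 over vehicle, with its standard error, under TMM scaling (left) and library totals (right), and the median of all tested genes as a dashed line. Medians of the members are -0.14 on the left and 0.032 on the right, and Psmd5 stands to the right of the other members in both.

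In summed level the vehicle libraries differed among themselves by more than the group means did. The summed level of the members was 3974, 3711 and 3929 CPM in TP-18 1, 2 and 3, and 4269.8, 4781 and 3925 CPM in vehicle 1, 2 and 3. Vehicle 2 was the highest library for 29 of the 34 members and lay above the gene's own mean for all 34. TP-18 2 was the lowest library for 17 members, TP-18 3 for 7 and vehicle 3 for 6. Vehicle 3, with a summed level like that of the TP-18 libraries, lay below the gene's mean for 29 members. Without TMM, vehicle 2 was again the highest, at 4471 CPM of the total, and vehicle 3 the lowest, at 3625 CPM of the total. The members' median log2 fold change was -0.083 without vehicle 2 and -0.24 without vehicle 3. Without vehicle 2 the log2 fold changes of Psma3, Psmb1, Psmd4 and Psmd14 were -0.14, -0.21, -0.14 and -0.18, nearer to 0 than with all libraries. Within groups the members still varied less than most genes, with a median SD of 0.14 in log2 CPM against 0.25 over all tested genes, many of which are less abundant.

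**Figure D3:**
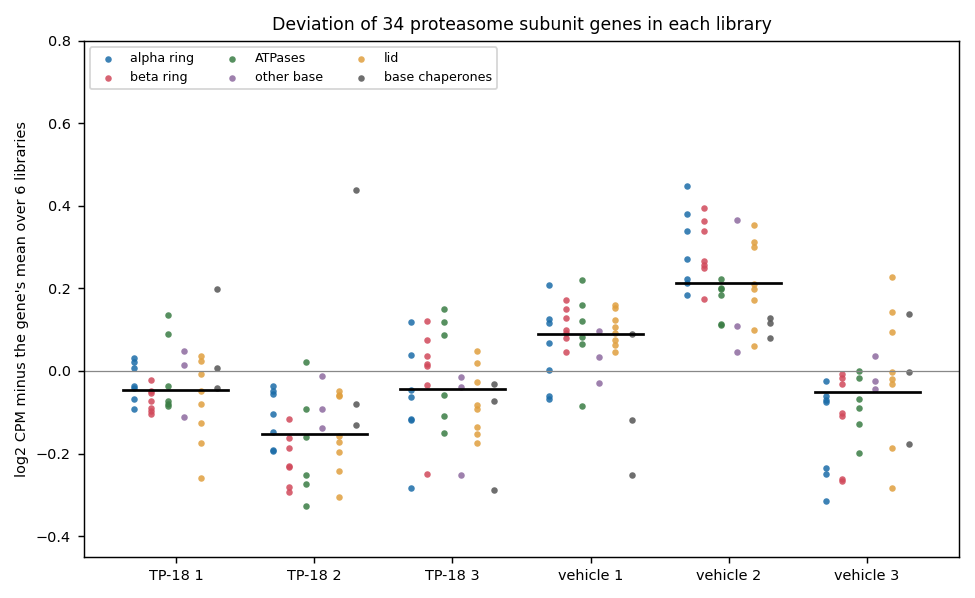
Deviation of each member from its own mean log2 CPM in each library (points, coloured by role) with the median of the 34 members (black line). Vehicle 2 lies above 0 for all 34 members, and the medians of vehicle 3 and of the 3 TP-18 libraries lie below 0.

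In the alpha ring, which gates the entry to the core, the 7 log2 fold changes ran from -0.26 to -0.040 with a median of -0.14, and 0 passed. Psma2, the most abundant alpha gene per length, had 119, 122 and 121 CPM in TP-18 libraries, against 121, 160.4 and 122 CPM in vehicle libraries. Vehicle 2 alone stood apart there, and the other vehicle libraries lay within 3 CPM of the TP-18 libraries. Psma3 had 108, 99.3 and 105 CPM in TP-18 libraries, against 119, 148 and 108 CPM in vehicle libraries, the lowest log2 fold change of the ring at -0.26 ± 0.15 (SE). Psma4 had 99.3, 90.4 and 99.9 CPM in TP-18 libraries, against 106, 114 and 78.0 CPM in vehicle libraries. The TP-18 libraries of Psma4 lay between the lowest and the highest vehicle library.

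In the beta ring all 7 log2 fold changes were between -0.32 and -0.15, with a median of -0.20, and 0 passed. With library totals their median was -0.02. Psmb5, the chymotrypsin-like subunit, had 38.1, 33.2 and 44.4 CPM in TP-18 libraries, against 46.0, 52.6 and 33.8 CPM in vehicle libraries. Psmb6, the caspase-like subunit, had 96.4, 83.3 and 100.4 CPM in TP-18 libraries, against 109, 111 and 90.7 CPM in vehicle libraries. Psmb7, the trypsin-like subunit, had 141, 119.9 and 154 CPM in TP-18 libraries, against 156, 174 and 136 CPM in vehicle libraries. In all 3 catalytic genes the groups overlapped, with vehicle 2 the highest and TP-18 2 the lowest library. Their log2 fold changes were -0.20 ± 0.20, -0.15 ± 0.14 and -0.17 ± 0.16 (SE), with edgeR adjusted p = 0.645, 0.634 and 0.613. Leaving out 1 library moved them to between -0.37 (without vehicle 3) and -0.062 (without vehicle 2) for Psmb5. The range was -0.24 (without vehicle 3) to -0.070 (without TP-18 2) for Psmb6 and -0.27 to -0.078, without the same libraries, for Psmb7. Psmb4 had 199.7, 181 and 215 CPM in TP-18 libraries, against 219.7, 256 and 212 CPM in vehicle libraries. Psmb1, a structural beta subunit, had 153, 151 and 138 CPM in TP-18 libraries, against 175, 216 and 162 CPM in vehicle libraries. The groups of Psmb1 did not overlap with TMM (log2 fold change -0.32 ± 0.15 (SE), edgeR adjusted p = 0.333). With library totals they overlapped, and the log2 fold change of Psmb1 was -0.15. Pseudogenes named after Psmb5, Psmb6 and Psmb7 are annotated in GENCODE, so that reads could be shared with them and these 3 counts are uncertain. None of these pseudogenes is a row of the deposited counts. Pseudogenes of any member under other names were not searched for. Of the exonic bases of Psmb5, 12.1% overlap Mir686, and 11.8% of those of Psmb7 overlap Nek6.

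The 6 ATPases, which form the unfolding ring of the base, had log2 fold changes of -0.22 to -0.057 with a median of -0.11, and 0 passed. Psmc1, the most abundant of them per length, had 147, 158 and 149 CPM in TP-18 libraries, against 147, 179 and 156 CPM in vehicle libraries. Psmc3 had 163, 118 and 158 CPM in TP-18 libraries, against 157, 161 and 139.6 CPM in vehicle libraries, with TP-18 2 the lowest and TP-18 1 the highest of all 6. Psmc6 had 91.0, 90.6 and 86.9 CPM in TP-18 libraries, against 105, 113 and 95.4 CPM in vehicle libraries, and did not overlap between groups with TMM. Of the other base subunits, Psmd2, a scaffold that binds ubiquitin-like domains, had 323, 293 and 309 CPM in TP-18 libraries, against 319.8, 322 and 307 CPM in vehicle libraries. Psmd4, a receptor of ubiquitin chains, had 133, 143 and 121 CPM in TP-18 libraries, against 141, 186 and 147 CPM in vehicle libraries. Both overlapped between groups, with log2 fold changes of -0.037 ± 0.12 and -0.26 ± 0.15 (SE).

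The lid held the 3 members with the smallest p. At an unadjusted edgeR p under 0.05, 3 of the 34 members were lower and 0 higher, where 8.7% of all tested genes were lower and 7.56% higher, and the 3 were the lid genes Psmd8, Psmd11 and Psmd6. A share of 3 in 34 is close to that of all tested genes. All 3 encode structural subunits of the lid. Psmd8 (Entrez 57296, GRCm38 chromosome 7, 29174188 to 29180701) had 156, 151 and 176 CPM in TP-18 libraries, against 201, 232 and 218 CPM in vehicle libraries. Its log2 fold change was -0.43 ± 0.13 (SE), with a 95% interval of -0.74 to -0.12 and an edgeR adjusted p = 0.219. Psmd11 (Entrez 69077, chromosome 11, 80428615 to 80473248), whose product is a scaffold of the lid, had 75.0, 71.5 and 76.1 CPM in TP-18 libraries, against 92.3, 104 and 93.4 CPM in vehicle libraries. Its log2 fold change was -0.38 ± 0.12 (SE), with an edgeR adjusted p = 0.219. Psmd6 (Entrez 66413, chromosome 14, 14112174 to 14120984) had 70.0, 68.4 and 67.7 CPM in TP-18 libraries, against 85.1, 88.6 and 81.6 CPM in vehicle libraries. Its log2 fold change was -0.31 ± 0.11 (SE), with an edgeR adjusted p = 0.253. In these 3 genes every TP-18 library lay below every vehicle library, and with library totals the log2 fold changes were -0.25, -0.20 and -0.13. With the length and expression trend removed they were -0.16, -0.30 and -0.11, given as values with no test.

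Psmd14, the metalloprotease that cuts ubiquitin chains from substrates, had 122, 113 and 118 CPM in TP-18 libraries, against 135, 166 and 129 CPM in vehicle libraries. Its log2 fold change was -0.28 ± 0.14 (SE), with an edgeR adjusted p = 0.363. At the other end of the lid, Psmd13 had 81.8, 77.1 and 83.2 CPM in TP-18 libraries, against 84.7, 86.2 and 70.6 CPM in vehicle libraries, a log2 fold change of 0.0037 ± 0.13 (SE), and 10.1% of its exonic bases lie opposite Sirt3. Over all 34 members, every TP-18 library lay below every vehicle library in 8, namely Psmb1, Psmb3, Psmc6, Psmd6, Psmd8, Psmd10, Psmd11 and Psmd14, and above it in 0, against 11.7% and 11.6% of all tested genes. With library totals only Psmd6, Psmd8 and Psmd11 were separated downwards (3 of 34, against 4.76% of all tested genes), and Psmd2, Psmd3 and Psmd13 were separated upwards (3 of 34, against 23.5%).

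**Figure D4:**
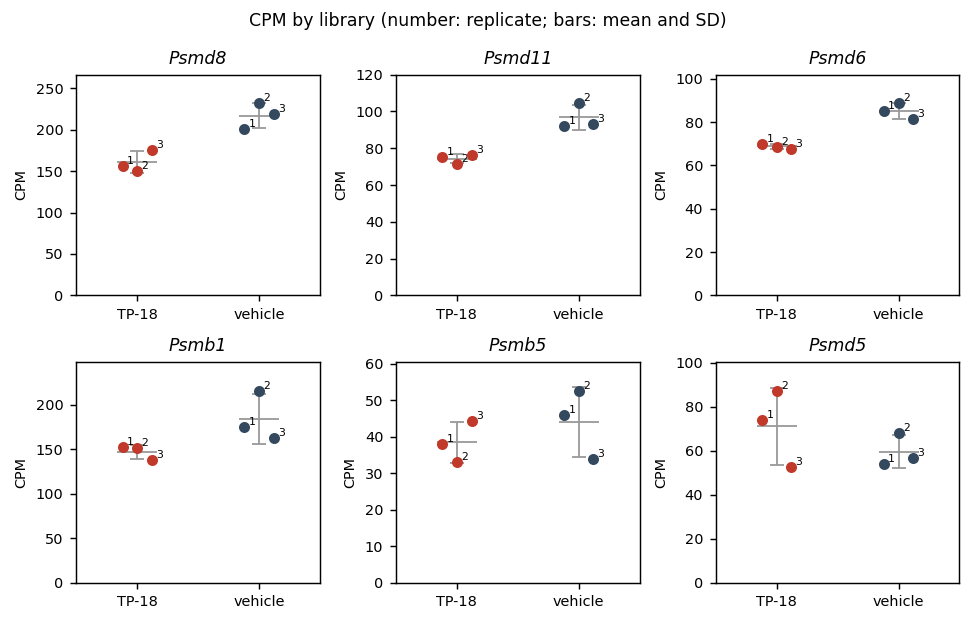
CPM of 6 members in each library, TP-18 left of vehicle, with replicate numbers and the mean and SD as bars. With TMM scaling, as drawn, Psmd8, Psmd11, Psmd6 and Psmb1 do not overlap between groups, whereas Psmb5 and Psmd5 do.

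Psmd5 was the member with the highest log2 fold change. It encodes a chaperone that assembles the ATPase ring and is absent from the finished proteasome. Psmd5 (Entrez 66998, chromosome 2, 34849734 to 34874968) had 73.8, 87.2 and 52.6 CPM in TP-18 libraries, against 53.8, 68.0 and 56.7 CPM in vehicle libraries. TP-18 1 and TP-18 2 were the highest of the 6 libraries and TP-18 3 the lowest. Its log2 fold change was 0.26 ± 0.20 (SE), with an edgeR adjusted p = 0.553, and it was 0.086 without TP-18 2 and 0.44 without TP-18 3. The other base chaperones did not share this spread. Psmd10, also known as gankyrin, had 33.4, 31.4 and 33.7 CPM in TP-18 libraries, against 36.6, 37.4 and 34.3 CPM in vehicle libraries. Psmd9 had a log2 fold change of -0.10 ± 0.13 (SE), and 25.5% of its exonic bases lie opposite the noncoding gene Gm26745, with which its reads could be shared, since the use of strand in counting is not given.

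The promoter windows of the 3 lid genes that lay lowest and of Psmd5, which lay highest, are given from RefSeq on GRCm38.p6. Each is 300 bases on the strand of the gene, with capitals on the GC box (GGGCGG on either strand), the only one of the 3 searched motifs found in them.
Psmd8, chr7:29180624-29180923, minus strand: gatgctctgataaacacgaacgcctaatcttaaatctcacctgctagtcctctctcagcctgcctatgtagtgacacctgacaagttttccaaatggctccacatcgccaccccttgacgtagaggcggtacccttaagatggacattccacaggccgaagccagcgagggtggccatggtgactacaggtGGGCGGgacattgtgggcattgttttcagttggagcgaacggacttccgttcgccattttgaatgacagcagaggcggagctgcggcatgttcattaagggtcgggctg
Psmd11, chr11:80428365-80428664, plus strand: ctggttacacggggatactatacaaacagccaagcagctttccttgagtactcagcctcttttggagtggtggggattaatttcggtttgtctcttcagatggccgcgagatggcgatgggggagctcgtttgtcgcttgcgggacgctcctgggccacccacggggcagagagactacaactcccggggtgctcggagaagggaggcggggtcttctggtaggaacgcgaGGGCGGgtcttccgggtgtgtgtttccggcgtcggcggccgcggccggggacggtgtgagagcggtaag
Psmd6, chr14:14120896-14121195, minus strand: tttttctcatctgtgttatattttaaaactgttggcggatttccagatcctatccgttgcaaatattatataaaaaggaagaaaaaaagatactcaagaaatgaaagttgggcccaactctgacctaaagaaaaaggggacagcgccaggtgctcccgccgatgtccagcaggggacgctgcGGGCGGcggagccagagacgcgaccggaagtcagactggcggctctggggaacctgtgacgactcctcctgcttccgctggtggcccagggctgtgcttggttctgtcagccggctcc
Psmd5, chr2:34870913-34871212, minus strand: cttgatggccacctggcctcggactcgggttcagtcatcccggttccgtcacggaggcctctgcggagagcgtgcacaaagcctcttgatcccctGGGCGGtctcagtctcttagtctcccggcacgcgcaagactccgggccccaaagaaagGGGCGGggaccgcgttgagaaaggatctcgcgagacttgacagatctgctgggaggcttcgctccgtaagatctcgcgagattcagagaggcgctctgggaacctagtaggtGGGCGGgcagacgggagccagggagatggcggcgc

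The windows of Psmd8, Psmd11 and Psmd6 hold 1 GC box each and that of Psmd5 holds 3. Their GC content is 53.7%, 61.7%, 53.0% and 63.7% in that order. None of the 4 holds the antioxidant response element core or a CCAAT box within these bases. The 4 genes were picked by fold change, and none of them passed the edgeR test. A link between promoter sequence and fold change was not tested.

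Other genes of the ubiquitin-proteasome system were examined in 7 lists with 37 tested genes. At an adjusted p under 0.05, 0 passed in either direction, and their median log2 fold change was -0.049. Nfe2l1 itself had 213, 208 and 241 CPM in TP-18 libraries, against 228, 187 and 237 CPM in vehicle libraries, a log2 fold change of 0.022 ± 0.15 (SE) with overlapping groups. Ngly1, the glycanase that helps to activate NRF1, had 26.7, 31.7 and 20.5 CPM in TP-18 libraries, against 25.1, 33.6 and 32.4 CPM in vehicle libraries. At an unadjusted edgeR p under 0.05, 2 of the 37 were lower and 0 higher, namely Sem1 and Uba6, a share no larger than the 8.7% lower among all tested genes.

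Sem1, the smallest subunit of the lid, which the naming rule of the members does not reach, had a log2 fold change of -0.41 ± 0.15 (SE) and an edgeR adjusted p = 0.245. It had 164, 151 and 164 CPM in TP-18 libraries, against 199, 247 and 190.2 CPM in vehicle libraries, with no overlap, and its log2 fold change was 0.17 with the length and expression trend removed. Uba6, an enzyme that activates ubiquitin, had 41.2, 50.1 and 36.1 CPM in TP-18 libraries, against 62.9, 47.2 and 58.7 CPM in vehicle libraries. TP-18 2 lay above vehicle 2, so that the groups overlapped, and the log2 fold change was -0.41 ± 0.17 (SE) with an edgeR adjusted p = 0.304. Ubqln2, a shuttle that brings substrates to the proteasome, had 53.3, 56.3 and 44.3 CPM in TP-18 libraries, against 62.5, 62.9 and 59.1 CPM in vehicle libraries. Psme3, the nuclear activator PA28 gamma, had 91.5, 85.7 and 92.1 CPM in TP-18 libraries, against 103, 108 and 98.3 CPM in vehicle libraries. Psmg4, a chaperone of core assembly, had 17.5, 18.4 and 19.8 CPM in TP-18 libraries, against 18.7, 25.7 and 19.3 CPM in vehicle libraries, with overlap.

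**Figure D5:**
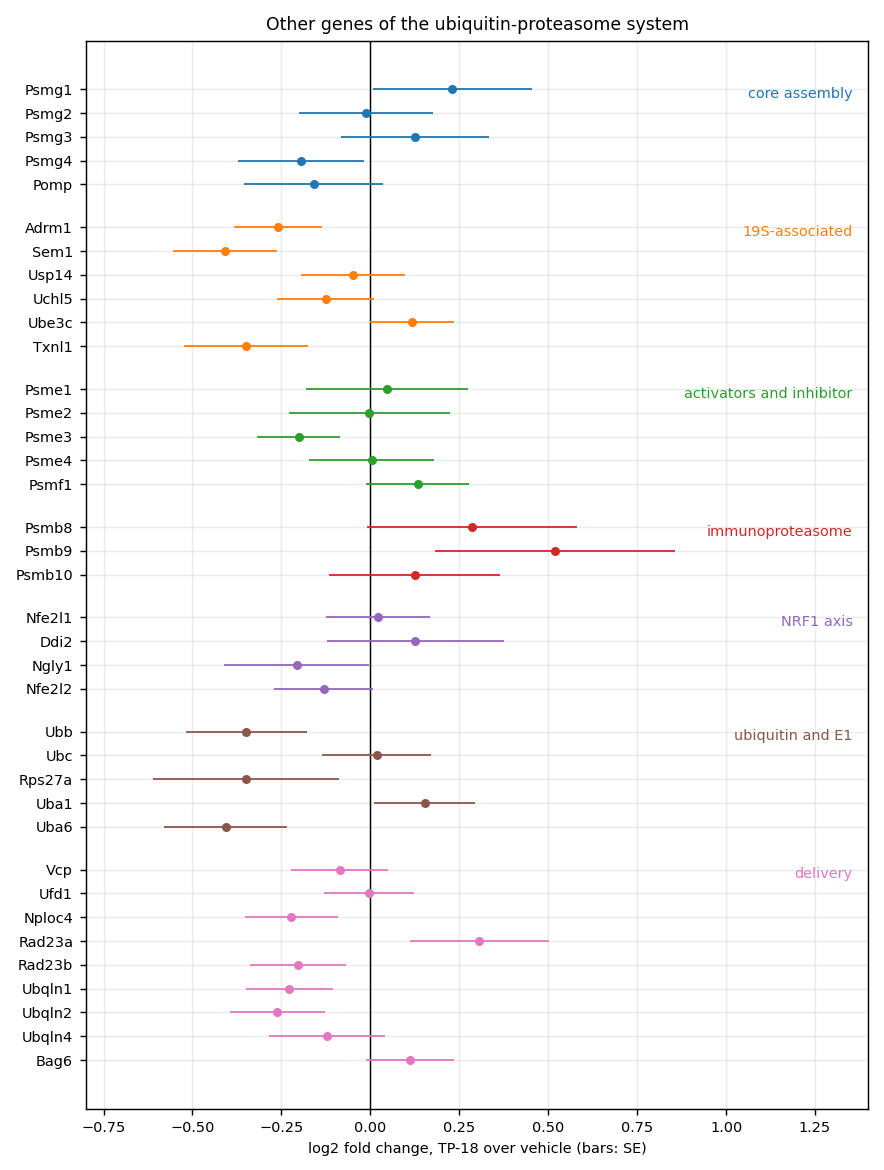
Log2 fold change with standard error, TP-18 over vehicle, of 37 other genes of the ubiquitin-proteasome system in 7 lists. Values run from -0.41 for Sem1 to 0.52 for Psmb9, and 0 of the 37 passed the edgeR test.

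The immunoproteasome genes, which replace the catalytic members, were set against their counterparts per length. The ratio of Psmb9 to Psmb6 in FPKM was 0.782, 0.595 and 0.858 in TP-18 libraries, against 0.685, 0.380 and 0.340 in vehicle libraries. That of Psmb8 to Psmb5 was 2.91, 2.44 and 3.14 in TP-18 libraries, against 2.81, 1.44 and 1.96 in vehicle libraries, and that of Psmb10 to Psmb7 was 0.397, 0.397 and 0.497 in TP-18 libraries, against 0.418, 0.345 and 0.291 in vehicle libraries. These ratios were not tested. In each pair vehicle 1 lay among the TP-18 libraries and the groups overlapped, with differences in mean log2 ratio, TP-18 minus vehicle, of 0.72, 0.50 and 0.30. Psmb9 had the largest log2 fold change of the 3 genes, at 0.52 ± 0.34 (SE) with an edgeR adjusted p = 0.477, and a 95% interval of -0.26 to 1.30 that leaves its direction undetermined at this number of libraries. Its log2 fold change was 0.93 without vehicle 1 (edgeR adjusted p = 0.163), 0.35 without TP-18 3 and 0.26 without vehicle 3.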

How the data were processed

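Messenger RNA was measured in 3 TP-18 and 3 vehicle libraries. The authors deposited raw counts per gene and FPKM values. The submitters' processing notes name fastp, HISAT2, HTSeq and GRCm38, and for versions, annotation release and strand use the entry is "not given in the sources used here". Each FPKM the authors deposited is the count divided by the library total and by 1 length per gene.

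Counts were tested here with edgeR 4.0.16 in R 4.3.3, by quasi-likelihood, TP-18 over vehicle with no covariate, after filterByExpr (minimum count 10, minimum total 15) and TMM scaling, with Benjamini-Hochberg adjustment over 12721 genes and a threshold of 0.05. CPM use TMM-scaled totals, or unscaled totals where so named. Standard errors are the absolute log2 fold change over the square root of F. The 95% intervals use the total degrees of freedom of that fit, residual plus prior, which were 7.71 for the members. Deviations are of log2(CPM + 0.5). Alternatives were RLE factors, library totals, other filters, DESeq2 1.42.0, limma 3.58.1 (voom, and log2 FPKM plus 1 or 0.1), a replicate block, a trend removed with mgcv 1.9.3, and each library left out. The edgeR script was tested on simulated data for this comparison, with changes of 1.5-fold or more. The estimated change of every member was smaller, so that simulation says nothing about changes of the members' size. Gene positions and exon overlaps are from GENCODE M21. Figures used matplotlib 3.10.9.

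Members and lists were chosen with earlier results of these data known. Genes named with values were fixed catalytic, ubiquitin-handling and chaperone genes and Nfe2l1, the 5 members with the smallest p, the highest and lowest fold change and highest FPKM per role, and the smallest p per related list. Psmb3, Psmd3 and Psmd9, and some values for Psmb8 and Psmb10, were added after values were seen. 1 gene of the related lists is not reported here.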

Additional observations from a re-analysis of the deposited data

How the results depend on the processing

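In every alternative that gives a test, 0 of the 34 members passed in either direction. The median of the members was 0.032 with library totals, 0.039 with limma on log2(FPKM + 1), 0.040 on log2(FPKM + 0.1) and 0.11 with the length and expression trend removed, where its distance from the median of all tested genes was 0.094. Members below 0 then numbered 13, 13, 13 and 9. Deposited FPKM are divided by library totals, so the fit with library totals and both FPKM fits share 1 scaling. These 3 fits left 0 members at an unadjusted p under 0.05. Of all tested genes, 3.47%, 3.36% and 3.40% were lower at that p with library totals, log2(FPKM + 1) and log2(FPKM + 0.1). With library totals 3 of 34 members were separated downwards, against 4.76% of all tested genes, and 3 upwards, against 23.5%. Over all tested genes, calls lower and higher were 20 and 7 with no filter, 339 and 160 with DESeq2, 1 and 1 with either FPKM fit, 1 lower with library totals and 0 lower with the replicate block.

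Leaving out 1 library gave a median of -0.24 to -0.083, 29 to 33 members below 0, 1 (without TP-18 1, 5.27% of all tested genes) to 7 (without vehicle 3, 7.57% of all tested genes) members lower and 0 to 1 higher (Psmd5, without TP-18 3) at an unadjusted p under 0.05, and 0 to 5 genes lower and 0 to 3 higher over all genes. Named genes whose sign turned were all uncalled. With library totals these were Psmb6 (0.030), Psmb7 (0.0065), Psmd10 (0.040), Psma4 (0.14), Psma2 (0.024), Psmc3 (0.12), Psmc1 (0.097) and Psmd2 (0.14). The same genes, in that order, had 0.033, 0.0072, 0.039, 0.15, 0.035, 0.11, 0.10 and 0.14 on log2(FPKM + 1), and 0.033, 0.0072, 0.041, 0.15, 0.035, 0.11, 0.10 and 0.14 on log2(FPKM + 0.1). Psmd13 was -0.0073 with RLE factors and -0.010 with DESeq2, and -0.096 to 0.042 without 1 library. In such fits Psma4 ranged from -0.20 to 0.055, Psmc3 from -0.14 to 0.074 and Nfe2l1 from -0.089 to 0.076. Removing the trend, which gives no test, also turned the sign of Psma2, Psma4, Psmb1, Psmb4 to Psmb7, Psmc1, Psmc3, Psmd2, Psmd4, Psmg4 and Sem1. The cause was not tested.

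Replicate numbers did not pair the libraries: correlations of same-numbered deviations were 0.20, 0.39 and -0.15, and not every library correlated best with its own number. With the replicate block, 0 genes were lower and 3 higher, and no member passed.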
